A study of Homo sapiens with 36 samples.

Results

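EA.hy926 cells were exposed for 48 h to 10 µM PFOA (perfluorooctanoic acid), and their mRNA was compared with that of cells kept for the same 48 h in vehicle, 0.05% DMSO. The comparison rests on 3 libraries at 10 µM and 3 vehicle controls, 6 of the 36 libraries of a study that also covered 1 and 100 µM at 48 h and nanomolar doses for 6 and 12 weeks. EA.hy926 is a wild-type human line made by fusing umbilical vein endothelial cells with a lung carcinoma line, so its cells carry features of both parents, and all 6 samples come from this single line. Cells grew as a monolayer in HAT medium, which selects for the hybrid, were dosed the day after plating, and were lysed in the dish. The submitters describe the replicates as biological. Values are read counts scaled by the authors to the size factor of the library, called normalised read counts here, and differences are given on the log2(value + 1) scale with a standard error.

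PFOA is a persistent perfluorinated fatty acid analogue that activates the nuclear receptor PPARA in liver and can bind other PPARs. Endothelial cells line blood vessels and answer to growth factors through MAP kinases and immediate early genes, to neighbouring cells through Notch, and to BMP ligands through ID genes. A shortage of amino acids is answered by the transcription factor ATF4, which raises genes of amino acid synthesis, transport and tRNA charging.

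HES1 (a Notch target), ID1 (a BMP target), LPCAT4 (phospholipid remodelling), MAP2K3 (a p38 kinase) and BBC3 (cell death) were lower in all 3 exposed libraries than in any control. ZBTB33 (a repressor), FHIP2A (vesicle transport), WDR89 and MBNL1 (splicing) were higher in all 3. Most genes on the lists of immediate early response, of EGR1 corepressors and MAP kinase feedback, and of Notch signalling were lower. Most aminoacyl-tRNA synthetases were higher. The medians of the first 3 lists came close to 0, at -0.11, -0.04 and -0.04, when the exposed library with the highest GC content was left out and the others were corrected for GC content. The median of the synthetases was 0.32 with all libraries and 0.14 with both changes. It was 0.10 when only that library was left out, and exposed replicate 2 lay below every control. None of these differences passed the test: limma called 0 of 12233 tested genes (0%) at an adjusted p under 0.05, and the smallest adjusted p was 0.96. At an unadjusted p under 0.05 there were 345 genes (2.82%), 108 higher (0.883%) and 237 lower (1.94%) at 10 µM. For 757 genes (6.19%) the 2 groups did not overlap, 327 higher (2.67%) and 430 lower (3.52%). With 3 libraries against 3, an exact permutation test of a single gene could not go below p = 0.1. All differences below are therefore described as measured values that did not pass.

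The 3 exposed libraries differed from each other more than the controls did. Recovered reads per library ran from 18444181 to 19466331 over the 12 libraries at 48 h. Ribosomal protein genes took 18.04%, 10.2% and 21.1% of the reads in replicates 1, 2 and 3 at 10 µM, against 14.4%, 12.2% and 17.2% in the controls. Mitochondrially encoded genes took 10.3%, 5.37% and 11.6% of the reads at 10 µM, against 6.66%, 6.39% and 8.35% in the controls. The read-weighted GC content of the transcripts was 51.7%, 50.05% and 53.6% at 10 µM, against 51.3%, 51.1% and 52.6% in the controls. Exposed replicates 2 and 3 thus stood at opposite ends of all 3 measures, outside the range of the controls.

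The same spread ran across genes by GC content. The tested genes were put in 10 equal groups by GC content. In the lowest of these groups, the median log2 difference from the control mean was 0.04, 0.57 and -0.91 in exposed replicates 1, 2 and 3, against 0.06, 0.17 and -0.22 in the controls. In the highest group it was 0.21, -0.81 and 1.36 at 10 µM, against -0.16, -0.30 and 0.47 in the controls. Exposed replicates 2 and 3 therefore tilted in opposite directions, and replicate 1 stayed close to level. Over all 3 exposed libraries the median difference ran from -0.10 in the lowest group to 0.25 in the highest, and without replicate 3 it ran from 0.28 to -0.31. The genes with an unadjusted p under 0.05 were placed the other way from the full group median: of the 108 higher genes 26 lay in the lowest group and 1 in the highest, and of the 237 lower genes 2 lay in the lowest and 46 in the highest. Groups of genes below are therefore also given without replicate 3 at 10 µM, after a correction of each library for GC content, and with both. With these changes limma called 0 genes without replicate 3 (279 at an unadjusted p under 0.05, 2.28%) and 0 after the correction (500 of 12096, 4.13%), and it called 0 with both (247 at an unadjusted p under 0.05). The groups did not overlap for 18.5% of the genes without that library and for 7.99% after the correction. Groups with fewer libraries fall apart more easily. The 18.5% therefore cannot be set against the 6.19% with all libraries or the 7.99%, and it shows no clearer separation.

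**Figure D1:**
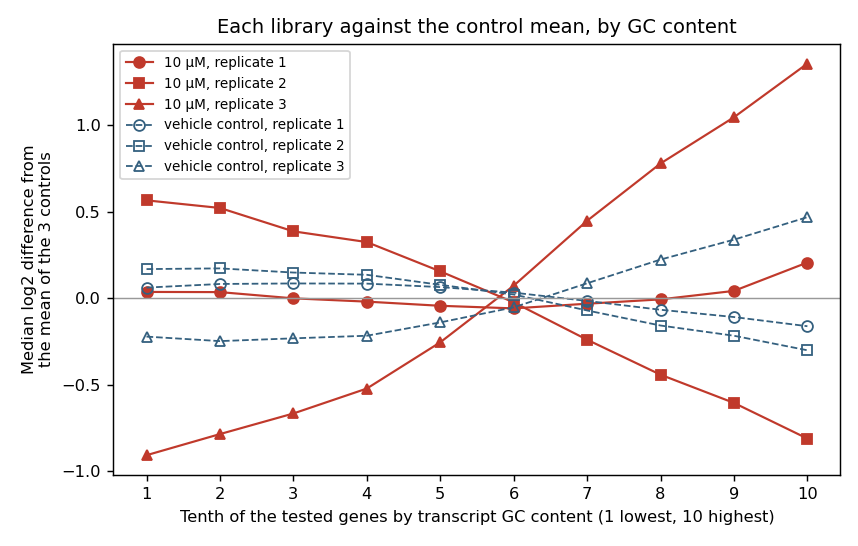
Median log2 difference of each library from the mean of the 3 vehicle controls, for 10 equal groups of the tested genes ordered by transcript GC content. Exposed replicate 3 (red triangles) ran from -0.91 to 1.36 and exposed replicate 2 (red squares) from 0.57 to -0.81, while the controls (blue, open) stayed between -0.30 and 0.47.

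Markers of both parents of the line were present, though on the epithelial side only KRT8 and KRT18 were high. PECAM1, CDH5, TEK, TIE1, ERG and VWF, which mark endothelium, had mean counts of 101 to 11430 at 10 µM and of 82.5 to 8242 in controls, whereas KDR, the main VEGF receptor, reached at most 5.19 in any library and CLDN5 was listed at 0. KRT8 and KRT18, keratins of the carcinoma parent, had means of 28410 and 49580 at 10 µM and 17120 and 27000 in controls, and the epithelial adhesion gene CDH1 was listed at 0. EPCAM and KRT19, also epithelial, had means of only 11.5 and 8.23 at 10 µM and 10.6 and 7.23 in controls. The summed level of the 5 epithelial markers ran from 18030 to 162500 at 10 µM and from 25260 to 73860 in controls. Nearly all of this sum was KRT8 and KRT18. Leukocyte markers summed to 2.29 to 12.2 at 10 µM and 3.23 to 7.78 in controls, with PTPRC at 0. Fibroblast and smooth muscle markers summed to 224 to 518 at 10 µM and 259.7 to 353 in controls, nearly all of it ACTA2. In RNA from a whole dish, fewer cells with a transcript and less of it per cell cannot be told apart.

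Of the higher genes named by the smallest p, which had a mean count of at least 50, groups that did not overlap and no overlapping locus, ZBTB33 came first. ZBTB33 encodes Kaiso, a repressor that binds methylated CpG, and lies on chromosome X from 120250812 to 120258398 in GRCh38.p14. Its normalised read counts were 667, 756 and 740.5 in exposed replicates 1, 2 and 3, against 411, 419 and 351 in the controls. All 3 exposed libraries agree closely here in spite of their different composition. The mean was 721 ± 47.9 at 10 µM and 394 ± 37.3 in controls (SD, n = 3 each), a log2 difference of 0.87 ± 0.23, and it was 0.85 without replicate 3, 0.99 ± 0.33 after the GC correction and 0.58 with both. FHIP2A, from a family of proteins that link cargo to the motor dynein, had counts of 397, 432 and 445 at 10 µM, against 241, 237 and 245 in the controls. The 3 controls lay close together, and the difference was 0.81 ± 0.22. WDR89, a WD-repeat protein, had counts of 308, 269 and 361.5 at 10 µM, against 182, 192 and 184 in the controls, a difference of 0.74 ± 0.20.

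KBTBD6 and FBXO45 are substrate adaptors of ubiquitin ligases. KBTBD6 had counts of 119, 104.5 and 144 at 10 µM, against 64.8, 73.4 and 51.8 in the controls (log2 difference 0.94 ± 0.26), and FBXO45 differed by 0.70 ± 0.21. MBNL1, a splicing regulator lost to toxic repeats in myotonic dystrophy, had counts of 4626, 2937 and 2686 at 10 µM, against 1995, 2048 and 1801 in the controls. Exposed replicate 1 stood well above the other two here, and the difference of 0.77 ± 0.25 was 0.92 without replicate 3. ST6GALNAC3, a sialyltransferase, had counts of 226, 157 and 292 at 10 µM, against 128, 102 and 95.4 in the controls, and its difference of 1.01 ± 0.31 was the largest of the 12 higher genes named by the smallest p. GNPNAT1, an acetyltransferase on the way to UDP-N-acetylglucosamine, had counts of 1928, 1418 and 2105 at 10 µM, against 1200, 1205 and 833 in the controls. CDCA2, which targets protein phosphatase PP1 to chromatin as mitosis ends, STYX, a catalytically inactive phosphatase, DMXL1, which takes part in the assembly of the vacuolar proton pump, and SMIM15 complete the 12, with differences of 0.63 to 0.78.

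Of the genes lower at 10 µM, LPCAT4 had the smallest p and the largest difference among the 12 named this way. LPCAT4 puts an acyl chain back on lysophospholipids in the remodelling of membranes, and lies on chromosome 15 from 34358633 to 34367196. Its counts were 872.5, 1668 and 772 at 10 µM, against 2066, 2221 and 3002 in the controls. Exposed replicate 2 was the closest to the controls, as for most of the lower genes, and no library crossed over. The mean was 1104 ± 491 at 10 µM and 2430 ± 502 in controls (SD, n = 3 each), a log2 difference of -1.21 ± 0.32, which was -0.99 without replicate 3, -1.27 ± 0.44 after the GC correction and -0.77 with both. BBC3, which encodes the cell death promoter PUMA, had counts of 372, 468 and 332 at 10 µM, against 653, 632 and 897 in the controls (-0.89 ± 0.25). GLB1, the lysosomal beta-galactosidase, had counts of 865, 1342 and 805 at 10 µM, against 1752, 1667 and 1622 in the controls (-0.78 ± 0.23). SFXN2, a mitochondrial sideroflexin, had counts of 39.7, 43.5 and 45.2 at 10 µM, against 67.4, 67.8 and 87.3 in the controls. Its exposed libraries were as even as those of ZBTB33, and its difference of -0.77 ± 0.23 was -0.81 without replicate 3, -0.72 after the GC correction and -0.85 with both.

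MID1IP1, a protein that helps acetyl-CoA carboxylase to polymerise, had counts of 183, 450 and 264 at 10 µM, against 566, 511 and 650.5 in the controls, with the exposed libraries spread over more than the controls. PLEKHG4 and ARHGEF25 are guanine nucleotide exchange factors. ARHGEF25 had counts of 240, 351 and 363 at 10 µM, against 489, 460.5 and 561 in the controls (-0.68 ± 0.22), and PLEKHG4 differed by -0.72 ± 0.22. CACTIN, a spliceosome-associated protein, had counts of 822, 936 and 900.4 at 10 µM, against 1300, 1265 and 1699 in the controls (-0.67 ± 0.21). The 12 higher genes had transcript GC contents of 35.9% to 44.9% and the 12 lower ones of 47.5% to 69.7%, where the median of all tested genes was 48.4%. In both sets all 12 genes kept the groups apart without replicate 3, as the choice of genes already fixes. After the GC correction the 12 higher genes had differences of 0.74 to 1.13 and the 12 lower ones of -1.27 to -0.72. With the correction and without replicate 3 these ranges were 0.30 to 0.69 and -0.85 to -0.32. DMXL1 was at 0.30, WDR89 at 0.35, PLEKHG4 at -0.32 and BBC3 at -0.42. With all libraries, the correction widened the standard errors of all of these genes but HES1, though hardly that of SFXN2. For WDR89 the standard error went from 0.20 to 0.42 and for BBC3 from 0.25 to 0.67.

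**Figure D2:**
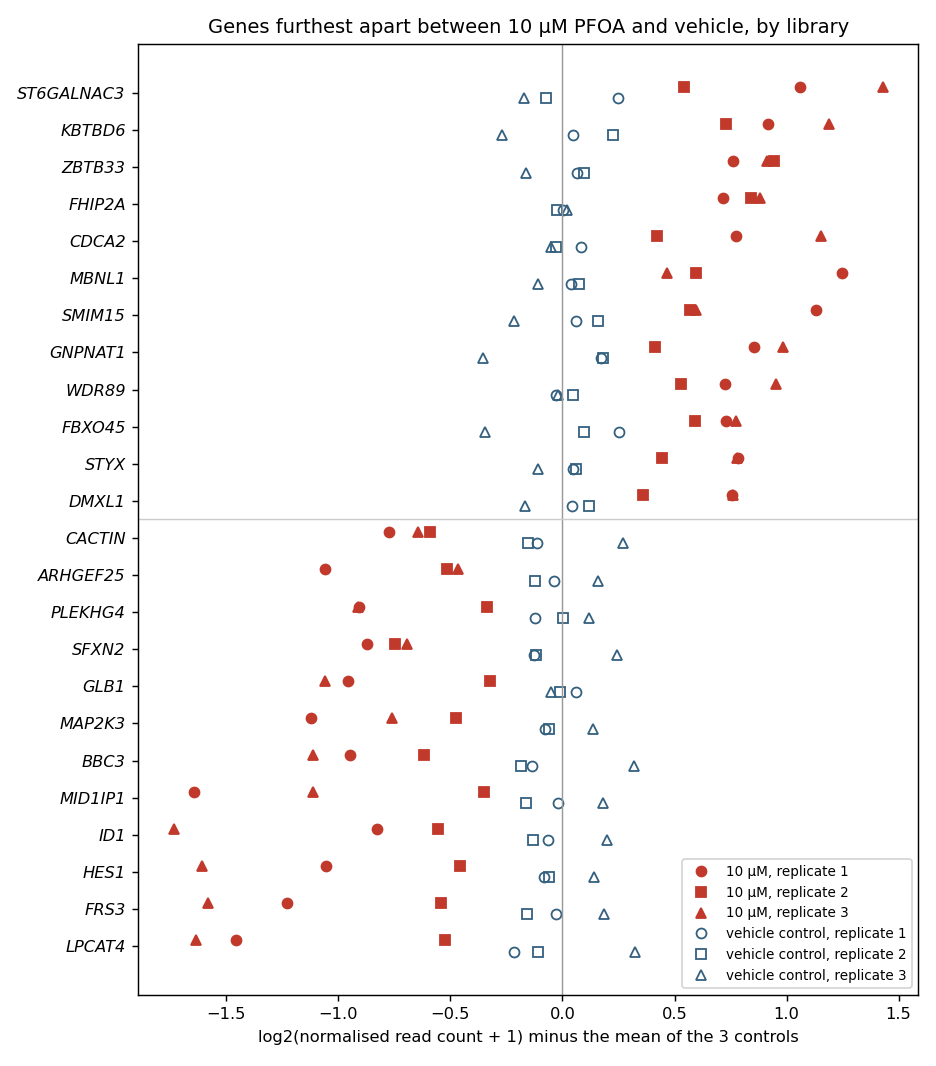
Log2(normalised read count + 1) of each library minus the mean of the 3 vehicle controls, for the 12 genes with the smallest p in each direction among those whose groups did not overlap. Exposed libraries (red, filled) lie right of all controls (blue, open) for the upper 12 genes and left of them for the lower 12, and replicate 2 (squares) was often the exposed library nearest to the controls.

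Choosing after the GC correction brought in another set of genes. TJP1, the tight junction scaffold ZO-1, had counts of 1029, 1137 and 812 at 10 µM, against 709, 774 and 558 in the controls. CALD1, the actin-binding caldesmon, had counts of 1551, 1463 and 1059 at 10 µM, against 922, 975 and 793 in the controls, with a corrected difference of 0.70. SOX4, a transcription factor, had counts of 1114, 875 and 772 at 10 µM, against 603, 635 and 434 in the controls, with a corrected difference of 0.75. In each of these 3 genes exposed replicate 3 was the lowest of its group yet above every control. PPP3CA, the catalytic subunit of calcineurin, NCR3LG1, a ligand of natural killer cells, USP32, a deubiquitinase, TAOK3, a stress kinase, and TMEM181 had corrected differences of 0.63 to 0.76. On the lower side, LAMTOR1, which anchors the Ragulator complex to lysosomes, had counts of 1140, 1089 and 1382 at 10 µM, against 1603, 1584 and 2194 in the controls. PDIA5, a protein disulfide isomerase, had counts of 1403, 1345 and 1272 at 10 µM, against 1848, 1737 and 2205 in the controls. Both were even within the exposed group. EWSR1, an RNA-binding protein, had counts of 2219, 4639 and 2362 at 10 µM, against 5192, 5065 and 4919 in the controls, so that replicate 2 lay just below the lowest control. POLB, the DNA polymerase of base excision repair, MPLKIP and LTO1 had corrected differences of -0.75 to -0.57.

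Leaving out replicate 3 before choosing named 3 further genes. EDIL3, an integrin ligand of endothelial cells, had counts of 2019, 1602 and 501 at 10 µM, against 962, 999 and 941 in the controls. Its difference was 0.89 without replicate 3 and 0.28 ± 0.44 with it, since that library lay below every control. RND1 had counts of 125, 139 and 250.3 at 10 µM, against 215, 191 and 273 in the controls, and MGAT5B, a glycosyltransferase, had 248, 315 and 332 at 10 µM, against 425, 422 and 565 in the controls. MGAT5B kept its groups apart with all libraries, and RND1 did not.

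Immediate early genes, which are switched on within minutes of a growth signal, were mostly lower at 10 µM. Of 19 tested members 17 were lower and 2 higher, with a median log2 difference of -0.50, where all 12233 genes had a median of 0.01 with 51.5% higher. At an unadjusted p under 0.05 there were 4 lower and 0 higher members, beside 1.94% and 0.883% of all genes, and none passed. The median of the list by library was -0.59, 0.08 and -0.92 in exposed replicates 1, 2 and 3, against 0.04, 0.11 and -0.17 in the controls. Replicate 2 thus lay among the controls for the list as a whole. The median was -0.39 without replicate 3, -0.48 after the GC correction and -0.11 with both.

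JUND, JUNB and KLF2 were the 3 members of this list whose groups did not overlap, where 6.19% of all genes had such groups. JUND, a subunit of AP-1, on chromosome 19 from 18279694 to 18281622, had counts of 693, 776 and 751 at 10 µM, against 1014, 1130 and 1616 in the controls. The 3 exposed libraries were even and the spread lay in the controls. The mean was 740 ± 42.8 at 10 µM and 1253 ± 319 in controls (SD, n = 3 each), a difference of -0.73 ± 0.26 that was -0.38 with the GC correction and without replicate 3. JUNB, another AP-1 subunit, had counts of 1283, 997 and 1147 at 10 µM, against 1617, 1459 and 2380 in the controls, but its locus overlaps another expressed gene, so reads could be split. JUN had counts of 3794, 7273 and 3918 at 10 µM, against 7588, 7793 and 6237 in the controls, and FOSL1 had a difference of 0.15 ± 0.36. Exposed replicate 2 was level with the controls for JUN, as it was for FOS, with counts of 34.5, 93.0 and 12.2 at 10 µM and 74.3, 114 and 53.8 in controls. KLF2, the shear stress factor of endothelium, had counts of 2465, 2259 and 1444 at 10 µM, against 3021, 2968 and 4039 in the controls, and its difference of -0.72 ± 0.29 was -0.16 with both changes. IER5 differed by -1.13 ± 0.39, MYC by -1.24 ± 0.59 and EGR1 by -1.11 ± 0.62, each with exposed replicate 2 at or above the lowest control. The letters TGACGTCA, the cyclic AMP response element that CREB and ATF factors bind, stand in capitals in the JUND promoter, here from 250 bases before to 50 after the start as given by RefSeq for GRCh38.p14 (chr19:18281573-18281872, minus strand), and are shown because JUND was the AP-1 gene with the most even exposed libraries.
JUND: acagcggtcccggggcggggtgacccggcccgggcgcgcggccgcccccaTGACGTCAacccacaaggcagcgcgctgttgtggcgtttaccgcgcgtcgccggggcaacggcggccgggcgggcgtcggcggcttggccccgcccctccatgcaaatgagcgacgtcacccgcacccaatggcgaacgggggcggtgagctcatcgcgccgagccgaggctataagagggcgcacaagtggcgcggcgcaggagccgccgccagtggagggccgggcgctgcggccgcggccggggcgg
The element begins at -200 from the start. It occurs in 1.98% of 27305 RefSeq promoters of this length and in 3.33% of the 9987 promoters of tested genes.

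Genes on the list of EGR1 corepressors and MAP kinase feedback were mostly lower too, but not in every exposed library. At 10 µM 16 of 21 tested members were lower and 5 higher. Their median was -0.35, which was -0.18 without replicate 3, -0.44 after the GC correction and -0.04 with both, where 11 were lower and 10 higher. The median by library was -0.60, 0.44 and -1.13 in exposed replicates 1, 2 and 3, against -0.02, 0.23 and -0.23 in the controls, so that exposed replicate 2 lay above every control. Members at an unadjusted p under 0.05 were 3 lower and 0 higher, beside 1.94% and 0.883% of all genes. MAP2K3, the kinase that activates p38, had counts of 364, 570 and 468 at 10 µM, against 752, 761 and 871 in the controls. Its difference of -0.79 ± 0.22 was -0.80 without replicate 3, -0.89 ± 0.37 after the GC correction and -0.53 ± 0.34 with both. FRS3, an adaptor of FGF receptors, had counts of 31.4, 51.1 and 24.3 at 10 µM, against 73.5, 66.9 and 85.3 in the controls (-1.12 ± 0.31). NAB2, a corepressor of EGR1, had counts of 185, 335 and 217 at 10 µM, against 439, 413 and 521 in the controls, with a locus that overlaps another expressed gene. The phosphatase DUSP6 and the inhibitor SPRY2, both induced by ERK, varied far more between replicates. DUSP6 had counts of 813, 2522 and 151 at 10 µM, against 1491, 1921 and 857 in the controls, and SPRY2 had 247, 1090 and 57.4 at 10 µM, against 716, 866 and 325 in the controls. Their differences of -0.99 ± 0.83 and -1.23 ± 0.91 were 0.09 and -0.18 without replicate 3.

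In the Notch pathway, the ligand DLL4 and several targets were lower at 10 µM, while the DNA-binding partner RBPJ was higher. Of 17 tested members 13 were lower and 4 higher, with a median of -0.36, which was -0.29 without replicate 3, -0.42 after the GC correction and -0.04 with both, where 10 were lower and 7 higher. The median by library was -0.50, -0.03 and -0.82 at 10 µM, against -0.05, 0.10 and -0.01 in the controls, with replicate 2 within the range of the controls. The groups did not overlap for 5 members, 4 lower and 1 higher, beside 3.52% and 2.67% of all genes. HES1, the repressor that Notch switches on directly, had counts of 166, 252 and 113 at 10 µM, against 327.5, 332 and 383 in the controls. The means were 177 ± 70.4 at 10 µM and 347.5 ± 30.5 in controls (SD, n = 3 each), and the difference of -1.04 ± 0.29 was -0.76 without replicate 3, -1.01 ± 0.27 after the GC correction and -0.72 with both. HES1 was 1 of 2 genes on the lower side, with SFXN2, that the smallest p named both before and after that correction. NRARP, a Notch target that dampens the signal, had counts of 25.1, 22.9 and 10.4 at 10 µM, against 29.4, 34.7 and 45.7 in the controls. DLL4, the ligand that guides vessel sprouting, had counts of 26.1, 57.2 and 17.4 at 10 µM, against 57.9, 63.7 and 63.9 in the controls, with replicate 2 only just below the lowest control. LFNG, a fringe enzyme that modifies the receptors, had counts of 236, 275 and 214 at 10 µM, against 301, 351 and 322 in the controls. RBPJ had counts of 688, 411 and 620.5 at 10 µM, against 347, 315 and 400 in the controls (0.67 ± 0.27). The receptor NOTCH1 differed by -0.58 ± 0.30 and NOTCH4, whose locus overlaps another gene, by -0.14 ± 0.23, the ligand JAG1 by 0.09 ± 0.53 and the targets HEY1 and HEY2 by -0.23 ± 0.46 and 0.29 ± 0.45, all with overlapping groups. The promoter of HES1 (RefSeq, GRCh38.p14, chr3:194135898-194136197, plus strand) is shown because HES1 was the Notch target furthest apart, with the letters GTGGGAA, the core that RBPJ binds, in capitals.
HES1: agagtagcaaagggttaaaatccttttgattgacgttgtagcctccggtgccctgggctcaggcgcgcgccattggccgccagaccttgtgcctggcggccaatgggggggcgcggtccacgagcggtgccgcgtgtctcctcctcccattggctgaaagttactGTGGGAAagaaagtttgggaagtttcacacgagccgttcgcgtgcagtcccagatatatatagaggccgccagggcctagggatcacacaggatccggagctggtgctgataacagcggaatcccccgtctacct
These letters begin at -85 from the start. They occur in 6.28% of all 27305 promoters and in 5.67% of those of tested genes.

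ID1, a target of BMP receptors that blocks differentiation factors, had counts of 2868, 3469 and 1531 at 10 µM, against 4870, 4651 and 5840 in the controls. The groups were well apart, at means of 2623 ± 992 at 10 µM and 5120 ± 633 in controls (SD, n = 3 each). The difference was -1.04 ± 0.33, which was -0.69 without replicate 3 and -0.44 with the GC correction as well. The related ID2 differed by -1.09 ± 0.68 and ID3 by 0.04 ± 0.44, with overlapping groups. Over the 16 BMP and TGF-beta response genes 11 were lower and 5 higher, with a median of -0.04. Without replicate 3 it was 13 lower and 3 higher, with a median of -0.25. The median was -0.03 after the GC correction and -0.01 with both changes, where 10 were lower and 6 higher.

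The ATF4 response gave no list-wide difference. Of its 27 tested genes 13 were higher and 14 lower, at a median of -0.04 that was -0.11 without replicate 3 and 0.02 with the GC correction as well. ASNS, which makes asparagine, lies on chromosome 7 from 97851677 to 97928441 and had counts of 2283, 1362 and 2147 at 10 µM, against 1381, 1465 and 1096 in the controls. Replicates 1 and 3 were above all controls and replicate 2 lay among them. The difference was 0.53 ± 0.24, 0.44 without replicate 3 and 0.59 after the GC correction. CHAC1, a glutathione-degrading enzyme, had counts of 96.1, 32.0 and 219 at 10 µM, against 33.7, 37.9 and 104 in the controls. PHGDH, the entry enzyme of serine synthesis, had 3651, 1637 and 7062 at 10 µM, against 2395, 2147 and 2875 in the controls. Both followed the order of the exposed libraries in ribosomal protein share, with replicate 3 highest and replicate 2 lowest, and the part of that in the result was not tested. ATF4 itself differed by -0.12 ± 0.27 and DDIT3, which overlaps another gene, by 0.37 ± 0.55. On the lower side, CEBPB, a transcription factor of the stress and acute phase responses, had counts of 776, 1134 and 428 at 10 µM, against 1419, 1596 and 1370 in the controls (-1.01 ± 0.34). DDIT4, an inhibitor of mTORC1, had 250, 370 and 344 at 10 µM, against 391.5, 408 and 405 in the controls. STC2 and GPT2 also had groups that did not overlap, with differences of -0.37 ± 0.21 and -0.36 ± 0.20. Such groups were found for 4 lower and 0 higher members of the list (14.8%), beside 6.19% of all genes.

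Aminoacyl-tRNA synthetases, which charge tRNAs and many of which respond to ATF4, were mostly higher. Of 20 tested genes 16 were higher and 4 lower, at a median of 0.32, which was 0.10 without replicate 3, 0.29 after the GC correction and 0.14 with both. The median by library was 0.27, -0.13 and 0.60 in exposed replicates 1, 2 and 3, against 0.06, 0.01 and -0.06 in the controls, so that exposed replicate 2 lay below every control. LARS1, for leucine, had counts of 4262, 3707 and 3791 at 10 µM, against 2950, 3046 and 2020 in the controls. Its difference of 0.57 ± 0.23 was 0.60 without replicate 3 and 0.41 with the GC correction as well. RARS1, for arginine, had counts of 2170, 1524 and 1811 at 10 µM, against 1510, 1520 and 1066 in the controls, with replicate 2 only just above the highest control. Others rested on replicate 3: QARS1 had 4763, 2839 and 12010 at 10 µM, against 4093, 3679 and 4869 in the controls, and its difference of 0.38 ± 0.46 was -0.19 without that library. ASNS is the best-known target of the amino acid response, and its promoter (RefSeq, GRCh38.p14, chr7:97872359-97872658, minus strand) is shown with the letters TGATGAAA, which start the element that ATF4 binds there, in capitals.
ASNS: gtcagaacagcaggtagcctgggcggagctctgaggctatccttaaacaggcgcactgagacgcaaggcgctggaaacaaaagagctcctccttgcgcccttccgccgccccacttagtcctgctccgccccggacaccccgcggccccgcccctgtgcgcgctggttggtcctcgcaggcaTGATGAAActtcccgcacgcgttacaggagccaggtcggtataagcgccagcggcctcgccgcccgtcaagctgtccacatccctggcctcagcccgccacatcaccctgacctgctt
They begin at -68 from the start. They occur in 1.10% of all 27305 promoters and in 0.401% of those of tested genes. Besides these 3 motifs, both strands of the promoters were searched for the CArG box, TGACTCA (AP-1), CCCGCCC (SP1) and GCGGGGGCG (EGR1). TGACGTCA reads the same on both strands, and the last pair can overlap in GC-rich stretches. EGR1 held 2 CArG boxes, at -105 and -83, and CCCGCCC was in 32.9% of all promoters and in 53.9% of those of tested genes.

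**Figure D3:**
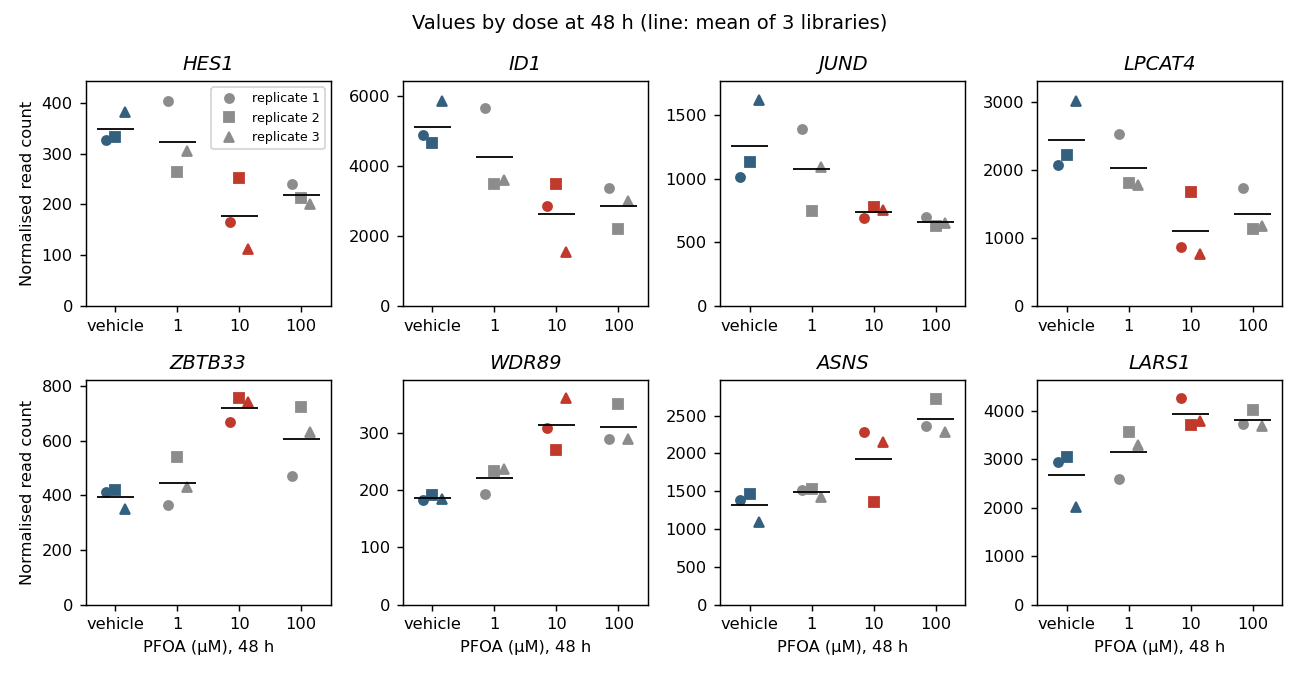
Normalised read counts of 8 genes in each of the 12 libraries at 48 h, by PFOA dose from vehicle to 100 µM, with the mean of 3 libraries as a line. HES1, ID1, JUND and LPCAT4 were lower at 10 µM (red) than in every control (blue), ZBTB33, WDR89 and LARS1 were higher, and ASNS overlapped through replicate 2 at 1362.

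Genes of lipid metabolism, where a fatty acid analogue could act, differed little as lists. Without replicate 3 the medians of the PPAR, phospholipid, fatty acid synthesis and cholesterol lists were 0.06, 0.01, -0.07 and -0.05, and after the GC correction 0.05, 0.08, -0.07 and 0.07. PPAR targets and genes of fatty acid oxidation had 10 higher and 12 lower of 22 tested, with a median of -0.01. CPT1A, which admits fatty acids to mitochondria, had counts of 608, 1006 and 513 at 10 µM, against 856, 916 and 637 in the controls. ANGPTL4, an inhibitor of lipoprotein lipase, had 2276, 703 and 7789 at 10 µM, against 1437, 1029 and 3267 in the controls, and its difference of 0.46 ± 0.78 was -0.42 without replicate 3. FABP4, a fatty acid carrier of endothelium, had 82.6, 56.4 and 53.9 at 10 µM, against 75.2, 62.1 and 73.1 in the controls. These 3 targets overlapped between the groups. Among the receptors, PPARA differed by 0.14 ± 0.27, and PPARD had counts of 239, 303 and 273 at 10 µM, against 315, 340 and 395 in the controls (-0.36 ± 0.20).

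Of 24 phospholipid remodelling genes 13 were higher and 11 lower, at a median of 0.05. Besides LPCAT4, LPCAT3 had counts of 373, 746 and 304 at 10 µM, against 811.5, 860 and 1006 in the controls (-1.01 ± 0.31), with a locus that overlaps another expressed gene. LPCAT1 and LPCAT2, of the same acyltransferase step, differed by 0.14 ± 0.23 and -0.41 ± 0.49 with overlapping groups. In fatty acid synthesis 8 of 14 genes were lower, at a median of -0.08. SREBF1, the regulator of that pathway, had counts of 661.5, 793 and 760 at 10 µM, against 1015, 1023 and 1380 in the controls (-0.61 ± 0.21), also with an overlapping locus. FASN, the fatty acid synthase, had 3323, 4459 and 5171 at 10 µM, against 5128, 5382 and 6409 in the controls, where replicate 3 just exceeded the lowest control. In cholesterol synthesis and uptake 11 of 23 were higher and 12 lower, at a median of -0.03. LSS, which closes the sterol ring, had 847.5, 990 and 1027 at 10 µM, against 1275, 1164 and 1207 in the controls.

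By list median, transcripts of translation and respiration were above every control in exposed replicates 1 and 3 and below every control in replicate 2. The medians over all 3 exposed libraries were above 0, and they were near or below 0 without replicate 3. Without replicate 2 they were 0.90 for ribosomal proteins, 1.41 for mitochondrially encoded genes and 0.76 for the nuclear-encoded respiratory chain. Of 79 cytosolic ribosomal protein genes 75 were higher and 4 lower, at a median of 0.36, and 0 reached an unadjusted p under 0.05. The list median was 0.53, -0.73 and 1.30 in exposed replicates 1, 2 and 3, against -0.02, -0.36 and 0.38 in the controls. It was -0.11 without replicate 3, 0.40 after the GC correction and -0.10 with both, and it was also below 0 after quantile normalization and in the fit that held the first principal component. All 13 mitochondrially encoded genes were higher, with a median of 0.60 that was 0.02 without replicate 3, 0.70 after the GC correction and -0.11 with both. MT-ND1, a subunit of respiratory complex I, had counts of 153200, 37320 and 327500 at 10 µM, against 63130, 53530 and 121900 in the controls. Replicate 2 was the lowest of the 6 libraries and replicate 3 the highest. Of 72 nuclear-encoded respiratory chain genes 55 were higher and 17 lower, at a median of 0.33 that was -0.06 without replicate 3, 0.34 after the GC correction and -0.01 with both.

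The groups did not overlap for 5 of these 72 genes, all lower at 10 µM. That share of 6.94% is near the 6.19% of all genes. ATP5F1E, a subunit of the ATP synthase, had counts of 2745, 2987 and 2018 at 10 µM, against 4383, 3665 and 5116 in the controls (-0.77 ± 0.28). ATP5MC3, which forms its rotor, had 1676, 2139 and 1172 at 10 µM, against 2671, 2460 and 2830 in the controls (-0.71 ± 0.27). UQCRB and UQCRFS1, of complex III, differed by -0.55 ± 0.33 and -0.50 ± 0.27, and ATP5PF, whose locus overlaps another gene, by -0.42 ± 0.23. All 5 were also lower without replicate 3, as their choice by groups that did not overlap already fixes. Their differences were then -0.60, -0.48, -0.29, -0.32 and -0.37 in the order named.

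Endoplasmic reticulum chaperones were lower in 18 of 19 genes, and 0 reached an unadjusted p under 0.05. Their median was -0.33, which was -0.04 without replicate 3, -0.27 after the GC correction and -0.14 with both. Without replicate 3 the split was 8 higher and 11 lower. The median by library was -0.34, 0.16 and -0.83 in exposed replicates 1, 2 and 3, against 0.03, 0.15 and -0.19 in the controls. Exposed replicate 2 thus lay above every control. HSPA5, the main chaperone of the compartment, had counts of 8763, 15830 and 4808 at 10 µM, against 12880, 13150 and 8020 in the controls, with replicate 2 above all controls. CALR, a chaperone of glycoproteins, had 12310, 15490 and 21190 at 10 µM, against 20750, 18720 and 22870 in the controls. SEC61B, of the protein translocation channel, was the 1 member of 19 whose groups did not overlap (5.26%, beside 6.19% of all genes), at 1073, 904 and 666 at 10 µM, against 1208, 1118 and 1223 in the controls.

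Endothelial identity genes were 13 higher and 14 lower of 27, with a median of -0.02. Without replicate 3 the counts were 8 and 19 and the median -0.18, which was -0.05 with the GC correction as well. SOX17, a factor of arterial endothelium, had counts of 98.2, 113 and 41.7 at 10 µM, against 115, 144 and 145 in the controls (-0.78 ± 0.34). CLEC14A, an endothelial lectin, had 906, 923 and 671 at 10 µM, against 1191, 1124 and 1653 in the controls (-0.66 ± 0.28). NOS3, the endothelial nitric oxide synthase, had 6978, 6399 and 7923 at 10 µM, against 7587, 8090 and 7791 in the controls, and its groups overlapped. In the inflammation list 13 were higher and 12 lower of 25, with a median of 0.00. CCL2, a monocyte attractant, had 718, 878 and 403 at 10 µM, against 999, 925 and 1047 in the controls, while ICAM1 and CXCL8 overlapped. Of 25 NRF2 genes 12 were higher and 13 lower. HMOX1, which degrades haem, had 212, 391 and 122 at 10 µM, against 435, 435.5 and 533 in the controls (-1.10 ± 0.36, and -0.69 without replicate 3), and NQO1, a classical NRF2 target, differed by 0.02 ± 0.24.

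Against the neighbouring doses, 10 µM was compared directly in the same fit. Limma called 0 genes between 10 and 1 µM (111 at an unadjusted p under 0.05, 0.907%, with 19 higher, 0.155%, and 92 lower, 0.752%, at 10 µM). It called 0 between 10 and 100 µM (13 at an unadjusted p under 0.05, 0.106%, with 5 higher, 0.0409%, and 8 lower, 0.0654%). HES1 had counts of 166, 252 and 113 at 10 µM, and 403, 263 and 304.5 at 1 µM, a difference of -0.92 ± 0.29. At 100 µM it had 241, 213 and 200.2, a difference of -0.37 ± 0.29 for 10 minus 100 µM. HES1 was thus lower at 10 µM than in all libraries at 1 µM, and it overlapped with 100 µM through replicate 2. ZBTB33 had 667, 756 and 740.5 at 10 µM, against 365, 541 and 430 at 1 µM and 469, 723 and 630 at 100 µM, with differences of 0.71 ± 0.23 and 0.27 ± 0.23. LPCAT4 had 872.5, 1668 and 772 at 10 µM, against 2517, 1805 and 1775 at 1 µM and 1734, 1134 and 1173 at 100 µM, with differences of -0.95 ± 0.32 and -0.35 ± 0.32. JUND had 693, 776 and 751 at 10 µM, against 1388, 744 and 1088 at 1 µM and 700, 631 and 654 at 100 µM, so that 1 library at 1 µM lay within the 10 µM range. For the 12 higher genes 10 minus 100 µM ran from -0.04 to 0.27, and for the 12 lower ones from -0.48 to -0.06. All 3 doses share the same 3 controls, and both sets of 12 genes were chosen by their difference from these controls at 10 µM. A difference of the same sign at another dose is therefore no separate support. Against those controls the 12 higher genes differed by 0.16 to 0.37 at 1 µM, 0.63 to 1.01 at 10 µM and 0.50 to 1.05 at 100 µM. The 12 lower genes differed by -0.39 to -0.12 at 1 µM, -1.21 to -0.67 at 10 µM and -0.86 to -0.50 at 100 µM. These values were not corrected for GC content. The read-weighted GC content at 100 µM was 52.3%, 53.2% and 50.3% in replicates 1, 2 and 3. The median of the immediate early genes was -0.04 at 1 µM, -0.50 at 10 µM and -0.45 at 100 µM, and that of the aminoacyl-tRNA synthetases was 0.04, 0.32 and 0.39 in the same order. ASNS had counts of 2283, 1362 and 2147 at 10 µM, against 1513, 1535 and 1419 at 1 µM and 2362, 2724 and 2282 at 100 µM. The highest library at 10 µM thus matched the lowest at 100 µM, and 10 minus 100 µM was -0.38 ± 0.24.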

How the data were processed

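Per the labels' protocols, RNA with integrity numbers above 9 went into mRNA libraries that were sequenced at 150 bp paired-end on DNBSEQ. In the deposited tables each gene has a signal, its reads scaled by the authors with a size factor. HISAT, Bowtie2, DESeq2 and the build GRCh38.p14 are named, per the submitters' processing notes. How reads were counted, and whether strand was used, is not given in the sources used here. Whole reads were recovered from the deposited signal; 100% of values came within 0.01 of whole reads.

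Of 47137 genes 18048 hold values, and the 12233 with a mean of at least 10 over the 12 libraries at 48 h were tested with limma 3.58.1 (R 4.3.3, intensity-dependent prior) on log2(signal + 1), with 1 mean per group, two-sided, Benjamini-Hochberg adjusted at 0.05. This scale understates the change of low genes. The fit was tested on simulated data. The GC correction subtracts from each library a loess curve (span 0.3) on transcript GC content (GENCODE 29, longest transcript), which 98.9% of the tested genes have. The tools edgeR 4.0.16 and DESeq2 1.42.0 were run on recovered reads.

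Named genes had an official symbol, a mean of at least 50, groups that did not overlap and no overlapping tested gene. Readthrough genes were left out by name, and near-identical copies were not searched for. The named genes were the 12 with the smallest p in each direction, 8 after the GC correction and 5 without replicate 3 at 10 µM. Members of 31 lists were named besides. The members and lists were chosen with earlier results of these data known. Positions and promoters are from RefSeq.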

Additional observations from a re-analysis of the deposited data

How the results depend on the processing

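The count of 0 passing genes held for 10 µM against control, 1 µM and 100 µM with limma under both other pseudocounts, both other filters, quantile normalization, only the groups compared, the GC correction alone, with the block or without replicate 3, the first component as a covariate, and with edgeR (255, 62 and 16 genes at an unadjusted p under 0.05). Leaving out each library in turn gave 0 to 0 in each comparison, with 125 to 2843, 13 to 3785 and 9 to 429 genes at an unadjusted p under 0.05, the highest each time without replicate 2 at 10 µM. DESeq2 called 1 gene against control, a readthrough gene with reads in 1 library, 0 against 1 µM and 2 against 100 µM. Library quality weights called 6219, 3287 and 265 genes. These weights were estimated from the spread itself, at 9.23 for control replicate 1 and 6.73 for replicate 1 at 10 µM, against 0.154 and 0.115 for replicates 2 and 3 at 10 µM, so the comparison with control came down largely to 1 library on each side. The cause was not tested. With the first component as a covariate 1950 genes had an unadjusted p under 0.05 against control.

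With the replicate number as a block, 0 genes passed in the 3 comparisons, and 286, 76 and 16 had an unadjusted p under 0.05. The labels number the replicates but name no pairs, so the numbers were not taken as pairs. Deviations of same-numbered libraries at 10 µM and in controls correlated at 0.0779, 0.807 and 0.792. The first principal component held 78% of the variance, so such correlations cannot settle whether the numbers pair. Each library at 10 µM correlated best with the control of its own number, as did 2 of the 3 with 1 µM and 0 of the 3 with 100 µM, which is a hint from the data and not the design.

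Of the 41 named genes 40 kept their direction under all 20 alternatives. Where the groups did not overlap with all libraries, that choice already fixed the direction when any single library was left out. The other filters, the replicate block and the fit of only the groups compared leave the difference itself unchanged. The count is therefore no separate support. EDIL3, at 0.28 with all libraries, turned to -0.11 without replicate 1 at 10 µM, and was at 0.89 without replicate 3. The medians of the immediate early, EGR1 corepressor and MAP kinase feedback, Notch and aminoacyl-tRNA synthetase lists kept their sign throughout. In the fit reported they were -0.50, -0.35, -0.36 and 0.32. With the GC correction and without replicate 3 they came to only -0.11, -0.04, -0.04 and 0.14. Endoplasmic reticulum chaperones kept their sign as well, heat shock chaperones turned to 0.01 under that pair of changes, and the cytosolic ribosomal protein list changed it under 4. A spread as wide as that among the 3 exposed libraries limits what 3 against 3 can show.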

Other observations

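Genes of cell division differed in both directions. Of 34 mitosis genes 15 were higher and 19 lower at 10 µM, with a median of -0.13 that was 0.15 without replicate 3. KIF11, the kinesin that separates spindle poles, had normalised read counts of 802.5, 844 and 817 in exposed replicates 1, 2 and 3, against 628, 644 and 412 in the controls (log2 difference 0.58 ± 0.23). UBE2C, the ubiquitin-conjugating enzyme of the anaphase-promoting complex, had 1966, 2223 and 1458 at 10 µM, against 2928, 2607 and 3270 in the controls (-0.66 ± 0.24), and CDCA8, of the chromosomal passenger complex, had 394, 723 and 408.5 at 10 µM, against 764, 784 and 776 in the controls. In these 3 genes the groups did not overlap. Over the mitosis list this held for 2 higher and 2 lower genes (11.8%), beside 6.19% of all genes. Of 30 DNA replication genes 21 were lower and 9 higher, at a median of -0.19 that was -0.05 without replicate 3. ORC6, of the origin recognition complex, had 182, 276 and 69.5 at 10 µM, against 296, 314 and 291 in the controls.

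Of 28 interferon response genes 20 were higher, at a median of 0.28 that was -0.09 without replicate 3. OAS3, a sensor of double-stranded RNA, had counts of 297, 303.5 and 384 at 10 µM, against 251, 255 and 210.1 in the controls. IRF9, which carries the interferon signal to DNA, had 316, 373 and 309 at 10 µM, against 455, 398 and 510.5 in the controls. The groups did not overlap for either gene, in opposite directions. Over the interferon list this held for 2 higher genes and 1 lower gene (10.7%), beside 6.19% of all genes. Among p53 targets 13 of 24 were lower, and CDKN1A, the cell cycle inhibitor, had 5541, 4218 and 11680 at 10 µM, against 5438, 5451 and 7048 in the controls. Hypoxia and glycolysis genes (15 higher and 17 lower of 32), extracellular matrix (11 and 19 of 30), coagulation and fibrinolysis (7 and 11 of 18) and heat shock chaperones (6 and 10 of 16) had medians of -0.01, -0.09, -0.12 and -0.15. With the GC correction and without replicate 3, the medians of the mitosis, DNA replication and interferon lists were 0.04, -0.01 and -0.05.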
